A study of Mus musculus with 7 samples.

Results

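Chemokine receptors decide where a B cell goes, and the transcripts of 8 of them were compared between memory B cells (MBCs) and plasma cells (PCs) of the mouse spleen. The members were Ccr6, Ccr7, Ccr9, Ccr10, Cxcr3, Cxcr4, Cxcr5 and Ackr3, taken by name from the 48795 genes of the table. All 8 were in the table, and 5 of them passed the filter on low values together with 11573 genes in all. MBCs held 11.7-fold more Cxcr5, the receptor for the B cell follicle. PCs held 6.84-fold more Cxcr3, a receptor for chemokines of inflamed tissue. The Cxcr3 difference was less firm and no longer passed the test in 10 of 18 alternative runs. Ccr6 was abundant in 2 of the 3 MBC libraries and low in the third, and Cxcr4 was abundant in both groups.

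The 7 libraries were bulk RNA sequencing of B-lineage cells from female wild-type C57BL/6 mice of 8 to 12 weeks. All mice had been given sheep red blood cells, a T cell-dependent antigen, into a vein, and spleens were taken on day 10. B cells were enriched with magnetic beads against CD43 before sorting by flow cytometry. The MBC gate was B220+ CD138neg IgDneg CD38+ CD273+ (n = 3), and the PC gate was B220lo CD138+ IgD- (n = 4). No untreated group was analysed here. Nothing in the labels says that the libraries of a group came from separate animals, so p-values measure only the spread between these libraries, which may be technical. In bulk RNA, fewer cells of a type and less RNA per cell cannot be told apart.

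Chemokine receptors are G protein-coupled receptors that turn a gradient of a secreted chemokine into directed movement. In lymphoid tissue, CXCL13 draws cells with CXCR5 into the follicle, CCL19 and CCL21 draw cells with CCR7 towards the T cell zone, and CXCL12 draws cells with CXCR4 to the germinal center (GC) dark zone, the red pulp and the bone marrow. B cells that become PCs are known to trade responsiveness to follicular chemokines for responsiveness to CXCL12, while CCR6 is widely used as a marker of memory precursors.

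Values are in TPM, a transcript abundance corrected for transcript length and library total, so levels of different genes can be compared. Immunoglobulin transcripts took between 49.4% and 55.9% of the TPM in PCs and between 1.65% and 3.16% in MBCs, which lowers the TPM of every other gene in PCs. Mitochondrial transcripts took 33.2%, 33.5% and 19.7% in MBC replicates 1 to 3 and at most 9.80% in PCs, and the part of this difference in the receptor values was not tested. Each library was therefore divided by its median ratio to the average library over 9305 genes, and the result is called scaled TPM. The factors were 1.82, 1.48 and 2.05 for MBC replicates 1 to 3 and between 0.636 and 0.813 for the PCs. From the steps between low values, 1 TPM of a transcript of 1 kb was estimated to be worth 6.23, 6.88 and 11.5 reads in MBC replicates 1 to 3 and between 9.33 and 16.3 reads in the PCs. A floor of 3 reads then lies at 0.482 TPM or lower in every library, and covers counting error only.

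The library labelled MBC replicate 3 stood apart from the other MBC libraries, and the members' fold changes, main shares, ratio, sum and order are given with and without it. Its sample title also carries another prefix than those of the other MBC libraries, a prefix shared only with PC replicate 4. What the prefix marks is not given, so it cannot be told apart from a difference in the cells. Cd38, whose product was in the MBC gate, was at 130 and 186 scaled TPM in MBC replicates 1 and 2, at 6.77 in MBC replicate 3 and between 9.89 and 21.3 in PCs. Pdcd1lg2, which encodes CD273, had 43.3, 24.4 and 2.59 scaled TPM in the MBC libraries (replicates 1 to 3) and no more than 2.84 in the PCs. Neither sort marker exceeded the highest PC library in MBC replicate 3, which goes against its label. Ighd, whose product IgD both gates excluded, was at 85.8, 39.9 and 9.55 scaled TPM in the MBC libraries and from 14.2 to 38.8 in the PCs, so on this marker MBC replicates 1 and 2 lay highest. The sum of 6 GC B cell genes was 244, 263 and 630 scaled TPM in the MBC libraries (replicates 1 to 3), with PCs from 60.3 to 125. The 7 proliferation genes summed to 165, 189 and 924 scaled TPM in the MBC libraries and to between 471 and 653 in PCs. Sdc1, which encodes CD138, was at 0.0585 scaled TPM or lower in all MBC libraries and between 49.6 and 78.1 in PCs, which matched the gate in all 7 libraries. The 5 PC genes summed to 186 scaled TPM or less in MBCs and to at least 8742 in PCs. MBC replicate 2 held globin and other erythroid transcripts at a sum of 2897 scaled TPM over 4 genes, against 72.6 or less in every other library. Sums of myeloid (7 genes), dendritic (5 genes) and platelet (3 genes) markers reached at most 29.0, 11.1 and 1.17 scaled TPM in any library. Across genes, which are not independent replicates, MBC replicate 3 correlated at r = 0.700 to 0.777 with the PC libraries and at 0.681 and 0.687 with the other MBC libraries, which correlated with each other at 0.675. MBC replicates 1 and 2 had the fewest genes above 0, at 12983 and 11527. MBC replicate 3 had 18061 and the PCs from 14463 to 16768. The part of depth in these correlations was not tested.

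**Figure D1:**
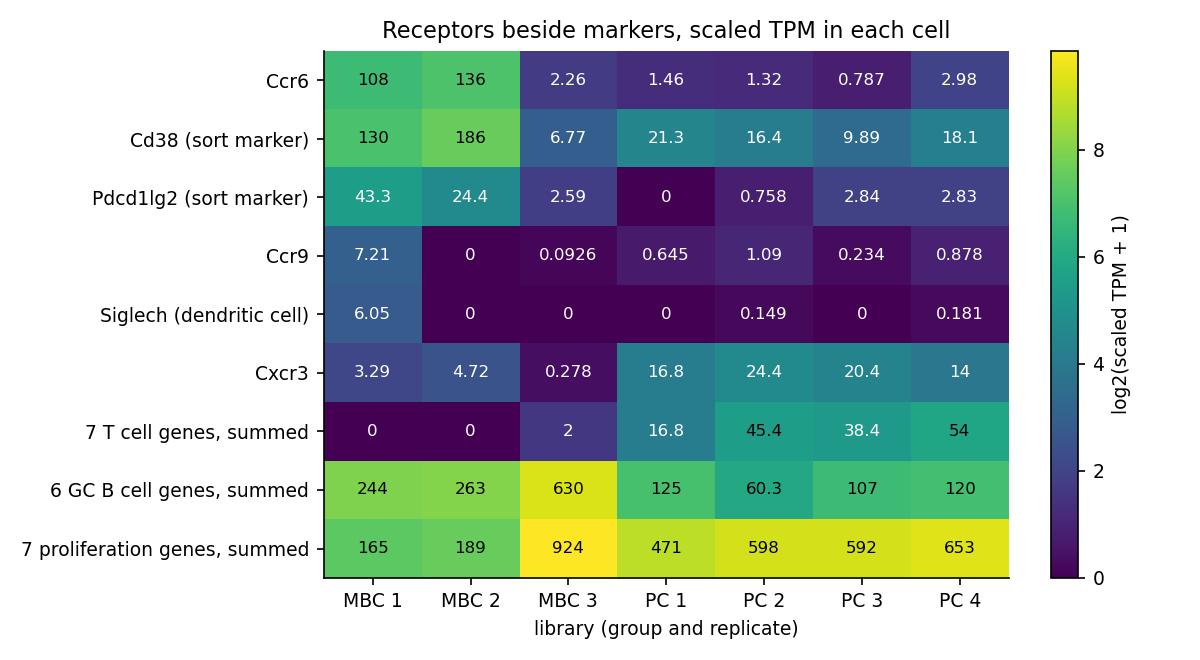
Heat map of receptors (Ccr6, Ccr9, Cxcr3) and of marker genes or marker sums (rows) in the 7 libraries (columns), with scaled TPM printed in each cell and color showing log2(scaled TPM + 1). Ccr6, Cd38 and Pdcd1lg2 were high together in MBC replicates 1 and 2 and low in MBC replicate 3, while Cxcr3 and the sum of the 7 T cell genes were higher in every PC library than in any MBC library.

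The receptors on which the comparison turns can be shown with the DNA before their starts. The window before Ccr6 is printed because Ccr6 had the largest spread of all members within a group, and the window before Cxcr3 because it was the member that rose in PCs. RefSeq held windows for 5 of the 8 members and none for Cxcr5, which is named only. Capitals mark the letters ACTTCCT (the core bound by Ets factors) and ATTTGCAT (ATGCAAAT on the other strand, the octamer bound by Oct factors), searched on both strands and chosen after the windows had been read.
Ccr6, chr17:8235793-8236042, GRCm38.p6, plus strand: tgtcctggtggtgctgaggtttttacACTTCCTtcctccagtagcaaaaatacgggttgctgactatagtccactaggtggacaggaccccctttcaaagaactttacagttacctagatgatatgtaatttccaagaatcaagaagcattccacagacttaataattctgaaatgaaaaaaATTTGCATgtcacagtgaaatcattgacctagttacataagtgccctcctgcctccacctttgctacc
Cxcr3, chrX:101734270-101734397, GRCm38.p6, minus strand: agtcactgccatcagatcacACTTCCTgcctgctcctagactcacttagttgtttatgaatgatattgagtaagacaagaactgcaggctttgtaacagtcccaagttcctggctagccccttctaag

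In the Ccr6 window the octamer began 68 bases and the Ets core 224 bases before the start, and another Ccr6 window in RefSeq held neither. The octamer is held by 1.6% and the Ets core by 7.69% of all 32851 windows of 250 bases. The E-box CAGGTG, also searched on both strands, is held by 17.2% of these windows and not by that of Ccr6. The Cxcr3 window was cut to the 128 bases that lie before the annotated start. Of windows of that length 3.41% hold the Ets core and 9.29% the E-box, which the printed bases lack. The part of RefSeq's Cxcr3 window that was cut holds an E-box 116 bases and another Ets core 16 bases before RefSeq's start. These matches are a description of the letters and not a measurement of binding.

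Cxcr5 (ENSMUSG00000047880, GRCm38 chr9:44511787-44561877, minus strand), the receptor for CXCL13 that brings B cells into follicles, separated the groups most firmly. The MBC libraries held 91.9, 142 and 42.6 scaled TPM (replicates 1 to 3), and the PC libraries held 6.06, 8.12, 5.89 and 11.4 (replicates 1 to 4). The lowest MBC library lay above the highest PC library, both in scaled TPM and in TPM as deposited, where the ranges were 87.5 to 211 in MBCs and 3.85 to 8.17 in PCs. The mean was 92.3 ± 49.8 scaled TPM over the MBC libraries (SD, n = 3) against 7.86 ± 2.56 over the PC libraries (SD, n = 4), 11.7-fold higher in MBCs. In limma's moderated test over all 11573 genes, with Benjamini-Hochberg adjustment, Cxcr5 fell by 3.28 on the log2(scaled TPM + 1) scale in PCs (SE 0.48, adjusted p = 0.0025). Without MBC replicate 3 the log2 fold change was -3.74 (SE 0.41, limma adjusted p = 0.0010). Cxcr5 overlaps Bcl9l on the plus strand, and whether reads were counted by strand is not given in the sources used here. Bcl9l had 18.9, 19.4 and 4.22 scaled TPM in the MBC libraries, while the PC libraries ranged from 0.456 to 2.47. Every library held more Cxcr5 than Bcl9l, and the part of shared reads was not tested.

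Ccr6 (ENSMUSG00000040899, GRCm38 chr17:8236043-8257141, plus strand), the receptor for CCL20 at epithelia, had the largest SD of the members within MBCs. The MBC libraries held 108, 136 and 2.26 scaled TPM (replicates 1 to 3), and the PC libraries held 1.46, 1.32, 0.787 and 2.98 (replicates 1 to 4). MBC replicates 1 and 2 were far above all other libraries, whereas MBC replicate 3 lay within the PC range. In TPM as deposited the groups did not overlap, since MBC replicate 3 was at 4.64 and the highest PC library at 2.14. The mean was 81.9 ± 70.4 scaled TPM over the MBC libraries (SD, n = 3) against 1.64 ± 0.942 over the PC libraries (SD, n = 4). The log2 fold change was -3.85 (SE 1.16), which did not pass the test (limma adjusted p = 0.0749). Without MBC replicate 3 it was -5.59 (SE 0.48, limma adjusted p = 3.5e-04), and the mean of the other 2 MBC libraries was 74.2-fold the PC mean. Ccr6 passed the filter on low values through the MBC libraries, since only PC replicate 4 among the PCs reached 1 TPM. Its tests are therefore not independent of the filter. The fall of Cd38 and Pdcd1lg2 and the rise of GC B cell and proliferation genes in MBC replicate 3 went with the low Ccr6, and their part was not tested.

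Ccr7 (ENSMUSG00000037944, GRCm38 chr11:99144196-99155077, minus strand), which draws cells to the T cell zone, overlapped between the groups. The MBC libraries held 11.7, 12.7 and 0.214 scaled TPM (replicates 1 to 3), and the PC libraries held 8.46, 2.27, 3.64 and 0.572 (replicates 1 to 4). As with Ccr6, the low MBC library was MBC replicate 3, which held an estimated 9 reads of this gene against 234 and 230 in the others. The PC libraries also spread widely, from an estimated 12 reads in PC replicate 4 to 140 in PC replicate 1. Means were 8.21 ± 6.94 scaled TPM over the MBC libraries (SD, n = 3) against 3.74 ± 3.39 over the PC libraries (SD, n = 4), and the log2 fold change of -0.62 (SE 0.95) did not pass (limma adjusted p = 0.736). Leaving out MBC replicate 3 gave a log2 fold change of -1.77 (SE 0.73), also not past the test (limma adjusted p = 0.125).

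Cxcr4 (ENSMUSG00000045382, GRCm38 chr1:128588199-128592293, minus strand), the receptor for CXCL12 that retains PCs in the bone marrow, was the most abundant member in every PC library. The MBC libraries held 15.6, 78.8 and 52.1 scaled TPM (replicates 1 to 3), and the PC libraries held 128, 62.4, 56.0 and 66.1 (replicates 1 to 4). The groups overlapped, since MBC replicate 2 lay above 3 of the 4 PC libraries. Means were 48.8 ± 31.7 scaled TPM over the MBC libraries (SD, n = 3) against 78.0 ± 33.4 over the PC libraries (SD, n = 4). The log2 fold change was 0.86 (SE 0.55, limma adjusted p = 0.377) in scaled TPM and turned to -0.44 (limma adjusted p = 0.562) in TPM as deposited, so no direction is given for the amount of Cxcr4. All 11573 genes had a median of 0.14 in scaled TPM and -0.91 in TPM as deposited on that log2 scale, and Cxcr4 lay above the median on both. With MBC replicate 3 left out, the log2 fold change of Cxcr4 was 1.04 (SE 0.63, limma adjusted p = 0.28).

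Cxcr3 (ENSMUSG00000050232, GRCm38 chrX:101731535-101734269, minus strand), the receptor for the interferon-induced chemokines CXCL9, CXCL10 and CXCL11, was the member that rose in PCs. The MBC libraries held 3.29, 4.72 and 0.278 scaled TPM (replicates 1 to 3), and the PC libraries held 16.8, 24.4, 20.4 and 14.0 (replicates 1 to 4). All PC libraries lay above all MBC libraries, also in TPM as deposited, where the highest MBC value was 7.01 and the lowest PC value 10.07. In estimated reads the MBC libraries held 56, 74 and 10, and the PC libraries between 233 and 374. The mean was 2.76 ± 2.27 scaled TPM over the MBC libraries (SD, n = 3) against 18.9 ± 4.50 over the PC libraries (SD, n = 4), 6.84-fold higher in PCs. The log2 fold change was 2.63 (SE 0.59, limma adjusted p = 0.024). Without MBC replicate 3 it was 1.98 (SE 0.42, limma adjusted p = 0.0152), and the ratio of means was 4.72.

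The call for Cxcr3 was less firm than that for Cxcr5. Leaving out PC replicates 1, 2, 3 or 4 gave limma adjusted p-values of 0.0616, 0.0989, 0.082 and 0.0649, with log2 fold changes between 2.5 and 2.76. In TPM as deposited the log2 fold change of Cxcr3 was 1.66 (limma adjusted p = 0.0846). With the title code as a block it was 2.5 (limma adjusted p = 0.0904). T cells and NK cells also use CXCR3. All 7 T cell genes were listed at 0 in MBC replicates 1 and 2, and their sum in MBC replicate 3 was 2.003 scaled TPM. In the PC libraries the sum was 16.8, 45.4, 38.4 and 54.0 (replicates 1 to 4). Cd3e ranged from 3.86 to 14.2 and Trac from 2.5 to 23.1 scaled TPM in PCs, while Cd8a was at 0 in PC replicates 1 to 3, and Cd3d and Cd3g were at 0 in PC replicate 1. The 4 NK cell genes summed to 0.0439 scaled TPM or less in each MBC library and to at least 4.91 in each PC library, of which Klrb1c and Nkg7 were at 0 in PC replicate 1. Of the 3 T cell genes tested, Cd3e and Trac were called higher in PCs (limma adjusted p = 0.0081 and 0.0191), where 6.41% of all genes were. Trbc2 was not called (limma adjusted p = 0.061), with 2.12 to 21.4 scaled TPM in PCs. These genes passed the filter on low values through the PC libraries, so the calls are not independent of it. The part of T and NK cells in Cxcr3 was not tested.

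Of the 5 members tested, 1 was thus called higher and 1 lower in PCs, at an adjusted p under 0.05 and a log2 fold change of 1 or more in either direction. Across all 11573 genes tested, 8.55% were called by that rule, 6.41% as higher and 2.14% as lower in PCs. Cxcr3 was the single member with all PC values above all MBC values among the 5, where 13.0% of all genes tested were so placed, and Cxcr5 the single member with all PC values below, against 8.68% of all genes. Without MBC replicate 3, 1 member was called higher and 2 lower, beside 13.8% and 7.94% of all genes, 21.7% together.

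**Figure D2:**
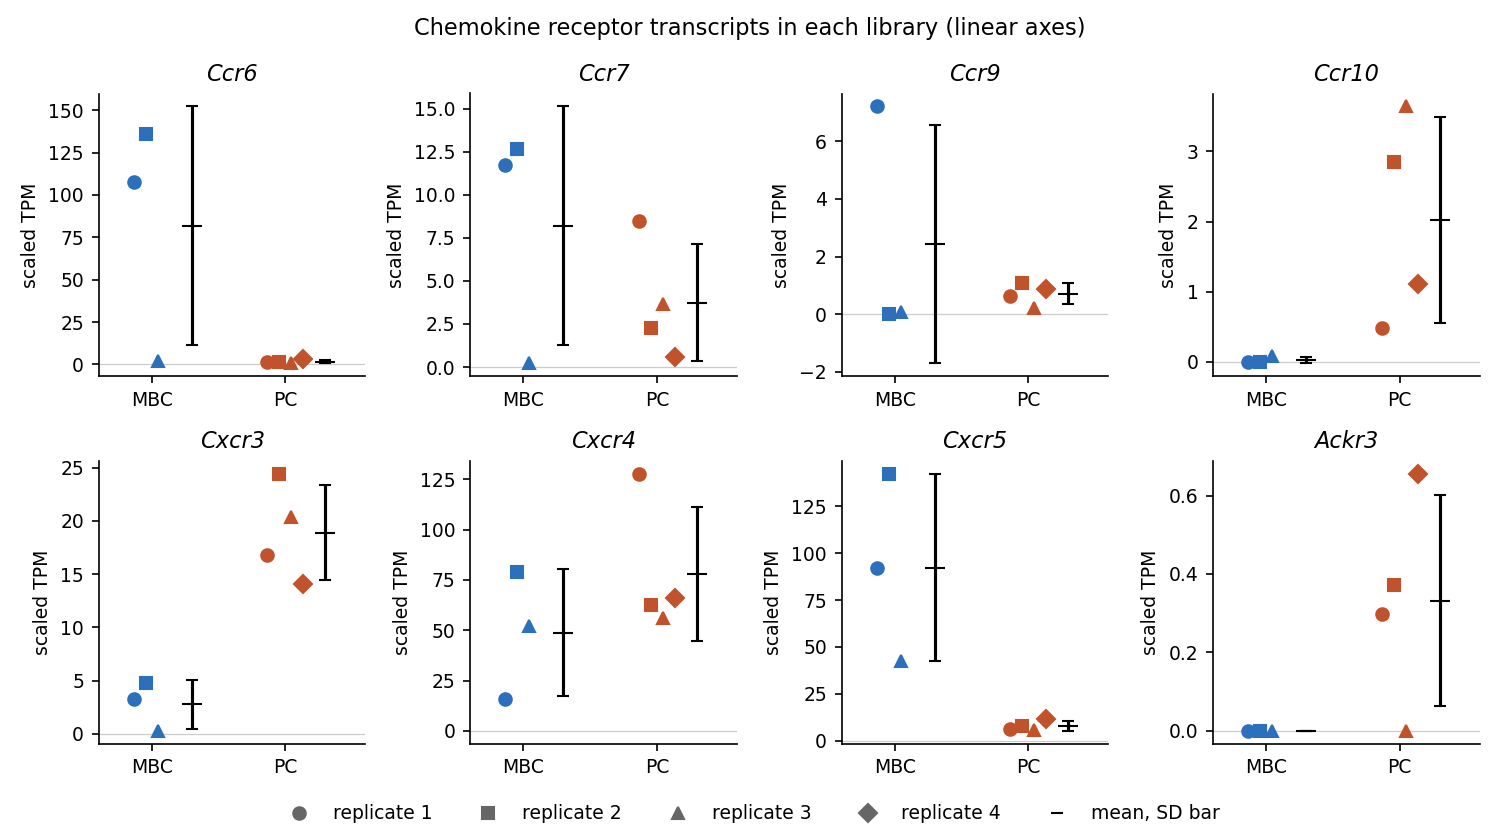
Level of each of the 8 receptors in scaled TPM (vertical, linear axes with their own scales) in the 3 MBC libraries (blue) and the 4 PC libraries (red), with symbols for replicates and a black bar for mean ± SD. Cxcr5 and Cxcr3 show no overlap between the groups, while in MBC replicate 3 Ccr6 lies within the PC range and Ccr7 below it.

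**Figure D3:**
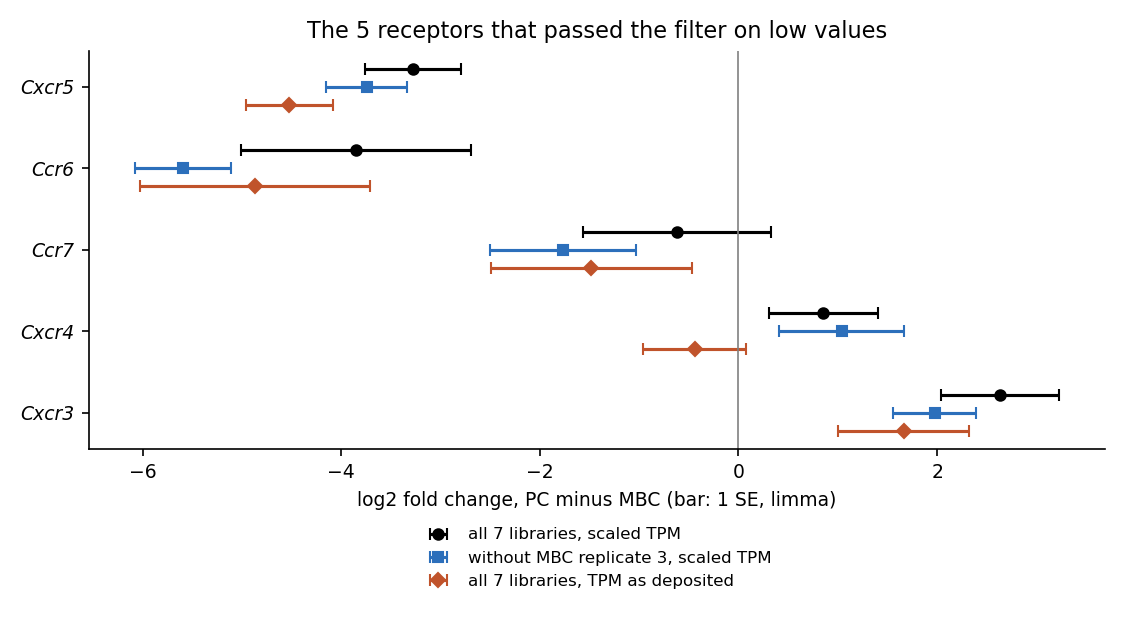
Log2 fold changes of PCs over MBCs with bars of 1 SE from limma for the 5 tested receptors, under scaled TPM with all libraries (black circles), without MBC replicate 3 (blue squares) and for TPM as deposited (red diamonds). Cxcr5 and Ccr6 lie below 0 and Cxcr3 above 0 under all 3, and Cxcr4 crosses from 0.86 to -0.44 in TPM as deposited.

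The mucosal receptors were low. Ccr9 (ENSMUSG00000029530, GRCm38 chr9:123678439-123784330, plus strand), the receptor for CCL25 of the small intestine, had values of 7.21, 0 and 0.0926 scaled TPM in the MBC libraries (replicates 1 to 3). The PC libraries held 0.645, 1.09, 0.234 and 0.878 (replicates 1 to 4). MBC replicate 1 thus held more than any other library, and the other MBC libraries lay below all PC libraries. Ccr9 did not pass the filter and was not tested. The plasmacytoid dendritic cell marker Siglech was at 6.05 scaled TPM in MBC replicate 1 and at no more than 0.181 in any other library. The Ccr9 locus also overlaps Lztfl1 on the minus strand, which was at 27.7 scaled TPM in MBC replicate 1 and at 2.86 and 7.73 in MBC replicates 2 and 3. Lztfl1 was between 12.7 and 21.6 scaled TPM in PCs. Neither the part of Siglech-expressing cells nor that of shared reads in the Ccr9 value was tested.

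Ccr10 (ENSMUSG00000044052, GRCm38 chr11:101172997-101175443, minus strand), the receptor for CCL27 and CCL28 that guides IgA-secreting cells to mucosa, had values of 0, 0 and 0.0828 scaled TPM in the MBC libraries (replicates 1 to 3). The PC libraries held 0.488, 2.85, 3.64 and 1.12 (replicates 1 to 4). The groups did not overlap, but the depth behind these values was small. The MBC libraries held an estimated 0, 0 and 3 reads and the PC libraries 7, 44, 42 and 20, and Ccr10 did not pass the filter, so no fold change or test is given. Cntnap1, which overlaps Ccr10 on the plus strand, was at 0.223 scaled TPM or less in all 7 libraries.

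Ackr3 (ENSMUSG00000044337, GRCm38 chr1:90203980-90216751, plus strand), an atypical receptor that takes up CXCL12 without G protein signalling, was listed at 0 in all 3 MBC libraries. The PC libraries held 0.299, 0.37, 0 and 0.655 scaled TPM (replicates 1 to 4). PC replicate 3 was also at 0, so the groups overlapped, and a difference was not detectable at this depth.

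The mix of receptors within a library does not depend on scaling. Each member was therefore also expressed as a percentage of the TPM summed over the 8 members. In MBC replicate 1, Ccr6 and Cxcr5 together made up 84.1% of the sum, and in MBC replicate 2 they made up 74.3%. In MBC replicate 3, Cxcr4 and Cxcr5 made up 97.0%. In all 4 PC libraries the leading pair was Cxcr4 and then Cxcr3, with 82.0% to 89.2% of the sum.

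Cxcr5 took 38.7%, 38.0% and 43.6% of the sum in the MBC libraries (replicates 1 to 3). It took 3.74%, 7.89%, 6.51% and 11.7% in the PC libraries (replicates 1 to 4). MBC replicate 3 thus lay near the other MBC libraries in this share. Its mean share was 40.1% ± 3.07 over MBCs (SD, n = 3) against 7.45% ± 3.30 over PCs (SD, n = 4), with p = 0.0286 in an exact two-sided permutation test. That is the smallest p that the 35 assignments of 3 and 4 libraries can give.

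Cxcr4 took 6.58%, 21.1% and 53.4% in the MBC libraries (replicates 1 to 3). It took 78.9%, 60.7%, 61.8% and 67.6% in the PC libraries (replicates 1 to 4). Every PC library thus had a larger share of Cxcr4 than every MBC library, although its scaled TPM overlapped. The means were 27.0% ± 23.9 over MBCs (SD, n = 3) against 67.3% ± 8.33 over PCs (SD, n = 4), with p = 0.0286 in the same exact test. The shares of Cxcr3 were 1.38%, 1.26% and 0.284% in MBCs, with PCs from 10.4% to 23.7% (exact permutation p = 0.0571). The shares of Ccr6 were 45.3%, 36.3% and 2.32% in MBCs, with PCs from 0.869% to 3.05% (exact permutation p = 0.0571). Shares add up to 100% and are not independent of each other. Adjusted over the 8 members by Benjamini-Hochberg, the exact permutation p was 0.114 for these 4 members and larger for the others, so none passed. Over MBC replicates 1 and 2 alone, the mean share was 38.4% for Cxcr5, 13.8% for Cxcr4, 1.32% for Cxcr3 and 40.8% for Ccr6, and the exact test could then not go below 0.0667.

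**Figure D4:**
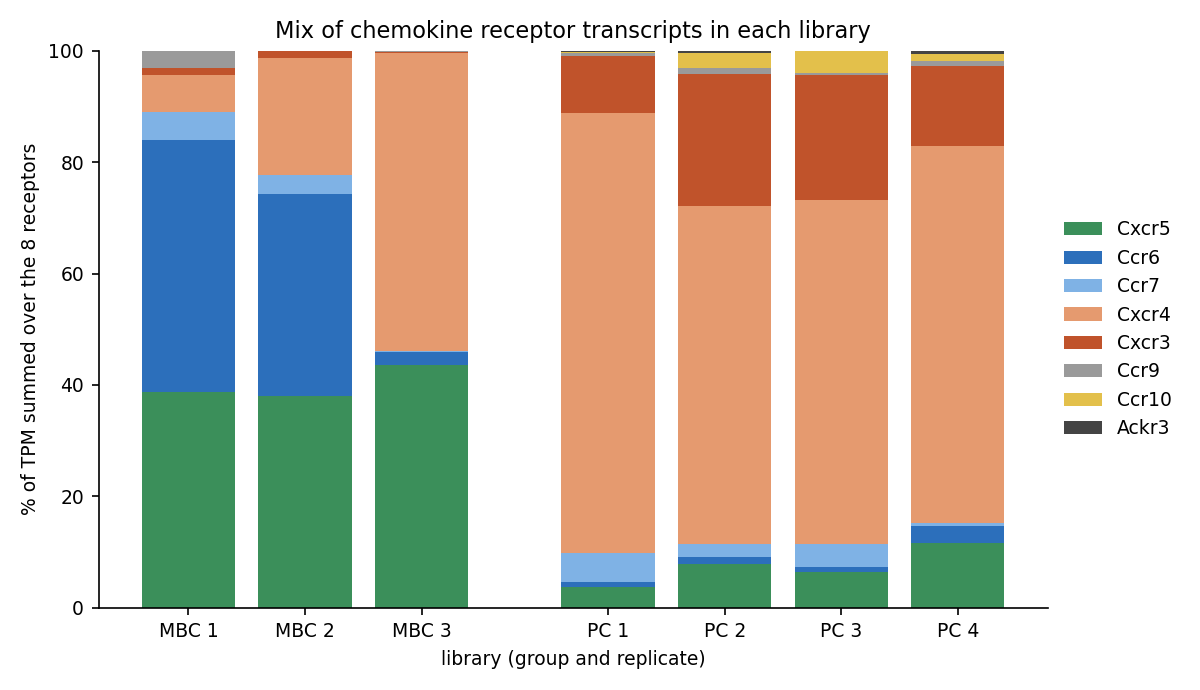
Stacked bars of the percentage that each of the 8 receptors took of their summed TPM (vertical axis from 0 to 100%) in each of the 7 libraries. Cxcr5 (green) held 38.0% to 43.6% in the MBC libraries, and Cxcr4 (light orange) held 60.7% to 78.9% in the PC libraries and 53.4% in MBC replicate 3.

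The transcript ratio of Cxcr4 (receptor for CXCL12) to Cxcr5 (receptor for CXCL13) was compared on the scale of log2 of TPM + 1 as deposited. The MBC libraries had values of -2.52, -0.85 and 0.29 (replicates 1 to 3), and the PC libraries 4.08, 2.73, 3.01 and 2.40 (replicates 1 to 4). There was no overlap, and MBC replicate 3 was the MBC library nearest to the PCs. MBCs averaged -1.03 ± 1.41 (SD, n = 3) against 3.06 ± 0.73 for PCs (SD, n = 4), which differ by 4.08 with an exact two-sided permutation p of 0.0286. On the linear scale these means equal a ratio of 0.491 in MBCs and 8.31 in PCs. In TPM as deposited the log2 fold change of PCs over MBCs was -4.52 for Cxcr5 and -0.44 for Cxcr4. In scaled TPM the values were -3.28 for Cxcr5 and 0.86 for Cxcr4. Cxcr5 thus had the larger change on both scales, and the ratio is not a result separate from the fall of Cxcr5. Without MBC replicate 3 the difference was 4.74 (exact permutation p = 0.0667, the smallest possible for 2 and 4 libraries).

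The 8 members summed to 237, 374 and 97.6 scaled TPM in the MBC libraries (replicates 1 to 3) and to 162, 103, 90.6 and 97.7 in the PC libraries (replicates 1 to 4). The sums of the groups overlapped, with a mean of 236 ± 138 over MBCs (SD, n = 3) against 113 ± 32.8 over PCs (SD, n = 4) and an exact two-sided permutation p of 0.143. The difference of the means, -123 scaled TPM, was -193 without MBC replicate 3 (exact permutation p = 0.0667) and -54.3 without MBC replicate 2 (exact permutation p = 0.4). In TPM as deposited the sums ranged from 200 to 555 in MBCs and from 69.2 to 103 in PCs, with an exact permutation p of 0.0286.

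Ranked by mean scaled TPM, the members in MBCs were Cxcr5, Ccr6, Cxcr4, Ccr7, Cxcr3, Ccr9, Ccr10 and Ackr3. The ranges of neighbours in that order overlapped except between Cxcr4 and Ccr7. Over MBC replicates 1 and 2 alone, Ccr6 (mean 121.7 scaled TPM) came before Cxcr5 (117.1), with overlapping ranges, and the rest of the order was the same. In PCs the order was Cxcr4, Cxcr3, Cxcr5, Ccr7, Ccr10, Ccr6, Ccr9 and Ackr3. There Cxcr4 lay above Cxcr3, and Cxcr3 above Cxcr5, without overlap, while all later neighbours overlapped.

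The titles of the samples carry a code that 1 MBC and 1 PC library share in 3 cases, without saying what it marks. Within these pairs (MBC replicates 1, 2 and 3 with PC replicates 1, 3 and 4), the log2 difference of PC minus MBC for Cxcr5 was -3.72, -4.38 and -1.82. That of Cxcr3 was 2.05, 1.90 and 3.56. Both genes kept 1 direction in all 3 pairs, but with the code as a block Cxcr3 no longer passed (limma adjusted p = 0.0904), while Cxcr5 did (limma adjusted p = 0.0181). Ccr6 differed by -5.46, -6.26 and 0.29 on the same scale, and Cxcr4 by 2.95, -0.49 and 0.34, so neither kept 1 direction.

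The genes whose log2(scaled TPM + 1) followed a member most closely over the 7 libraries are given as a description, and all of these values share the difference between the groups. Cxcr5 was followed most closely by Ms4a1 (r = 0.994), which encodes the B cell antigen CD20, and by Smim14 and Sh3bgrl3. Ms4a1 had 376, 419 and 208 scaled TPM in the MBC libraries, while the PC libraries ranged from 42.1 to 66.0. Ccr6 was followed by Gimap4 (r = 0.994), a lymphocyte GTPase, and by Polr3f and Hyi. Gimap4 was at 321 scaled TPM or more in MBC replicates 1 and 2, at 49.6 in MBC replicate 3 and at 49.1 or less in the PC libraries, so it too was low in MBC replicate 3. Cxcr3 was followed by Edem3 (r = 0.999), which acts in the degradation of misfolded glycoproteins, and by Tecr and Fndc3a. Ccr7 was closest to Rap2c (r = 0.993), Herc1 and Cwc22, and Cxcr4 to St7 (r = 0.985), Mapkap1 and Cbfa2t2.

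Among the other genes of the pathway, most did not pass the test. Of 16 further chemokine receptors 4 were tested, with 1 called higher and 1 lower in PCs, where 6.41% and 2.14% of all genes were called. The gene called higher was Ccrl2, an atypical receptor that binds chemerin, with 0.482 scaled TPM or less in MBCs and from 2.38 to 6.29 in PCs. Ackr2, which scavenges inflammatory CC chemokines, fell by 2.25 on the log2 scale (limma adjusted p = 0.0362) and by 2.56 without MBC replicate 3 (limma adjusted p = 0.0207). Of 12 ligands of the members 3 were tested and 1 was called higher, Cxcl10, a ligand of CXCR3. The highest MBC library held 0.146 scaled TPM of Cxcl10, and the PC libraries from 1.2 to 6.31. Ccrl2 and Cxcl10 passed the filter on low values through the PC libraries, and Ackr2 through the MBC libraries. These were the groups where each was high, so the 3 calls are not independent of the filter.

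All 16 genes that act below the receptors were tested, with a median log2 fold change of -0.40 beside 0.14 for all genes. Of these Rac2, a GTPase of the actin cytoskeleton, fell by 1.20 on the log2 scale (limma adjusted p = 0.0423) and by 1.22 without MBC replicate 3 (limma adjusted p = 0.0293), and none rose at the threshold. Of 14 genes that damp receptor signals 10 were tested, with a median of -1.26 and 1 call in each direction. Rgs10 rose by 2.80 (limma adjusted p = 0.0459) and Rgs2 fell by 1.79 on the log2 scale (limma adjusted p = 0.0347). Rgs10 rose by 3.80 (limma adjusted p = 0.0012) and Rgs2 fell by 1.49 (limma adjusted p = 0.0462) without MBC replicate 3. Both encode regulators that speed the shut-off of G proteins. The 2 tyrosine sulfotransferases, which modify the outer part of chemokine receptors, were both tested and neither passed with all libraries, with a median of 2.03. One of them, Tpst1, was called higher in PCs without MBC replicate 3 (log2 fold change 2.34, limma adjusted p = 0.0482). Both were called higher without MBC replicate 1. The medians of these 3 lists were -0.69, -1.36 and 1.82 without MBC replicate 3, beside 0.19 for all genes.

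Of 4 transcription factors linked to these receptors 3 were tested. Prdm1, which encodes the PC factor Blimp-1, rose by 5.04 on the log2 scale (limma adjusted p = 0.0017). Tbx21, which encodes T-bet, a known activator of Cxcr3, did not pass the filter and was at 0.536 scaled TPM or less in all 7 libraries. Without MBC replicate 3, 1 signalling gene was called higher and 4 lower, and 1 damping gene higher and 2 lower, where 13.8% of all genes were called higher and 7.94% lower. Klf2, which limits homing to lymphoid tissue, was then called lower (log2 fold change -2.0, limma adjusted p = 0.044), against -0.73 (limma adjusted p = 0.686) with all libraries. Leaving out MBC replicate 1, PC replicate 2 or PC replicate 3 removed the calls of Ccrl2, Ackr2, Cxcl10, Rac2, Rgs10 and Rgs2, whereas Prdm1 was called under each library left out.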

How the data were processed

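The authors deposited TPM for 48795 mouse genes in 7 libraries, rounded to 2 decimals, with no read totals. Libraries were made with a cDNA amplification kit (Nugen) and read on an Illumina HiSeq. The submitters' processing notes name STAR 2.5.2a, RSEM 1.3.0, DESeq2 1.18.1 and GRCm38, with no role or order, and the annotation release is not given in the sources used here. GENCODE release M21 for the mouse gave symbols and loci to 48349 genes by their IDs, and RefSeq on GRCm38.p6 gave the promoter windows. Groups came from the sample descriptions. No column was left without a sample.

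TPM was scaled by median ratios, and limma 3.58.1, run under R 4.3.3, was applied to log2(scaled TPM + 1) of genes that reached 1 TPM in 3 or more libraries (lmFit, eBayes with a mean-variance trend, Benjamini-Hochberg adjustment). This scale understates the change of low genes. Shares, sums and ratios were compared by exact two-sided permutation tests over 35 assignments, with scipy 1.17.1, pandas 2.3.3 and numpy 2.4.6 in Python 3.11.15. The methods read here, which leave out the supplementary ones, name no test for these libraries. The limma steps were tested on simulated data. Reads were estimated for genes with a single annotated transcript, from the worth of 1 read in each library, and 73.9% to 84.0% of low values lay within 0.15 of a whole read, where 30% would by coincidence. Pairs of libraries differed in at least 99.3% of the genes above 0 in either library of the pair, so none was a copy.

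The members, lists and tests were chosen with earlier results of these data known. All 8 members were named whatever their values, as were the 3 genes of highest Pearson r with each tested member and, from each list, up to 3 called genes of largest fold change. Siglech, the overlapping genes, Tbx21 and Klf2 were named after their values were seen. Alternatives were other pseudocounts, filters and scalings, limma without a trend, a replicate block, a title code block, the more frequent title prefix, and each library left out. The more frequent title prefix leaves out MBC replicate 3 and PC replicate 4.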

Additional observations from a re-analysis of the deposited data

Results flagged for a closer look

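The level of Cxcr4 in PC replicate 1, 128 scaled TPM, stood apart from the other PC libraries (62.4, 56.0 and 66.1). The gap to its nearest neighbour was 0.86 of the range of the group, above Dixon's critical value for 4 samples. Chance alone gives such a gap in about 1 of 20 groups, and 18 results were examined, so that 0.9 would be expected.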

How the results depend on the processing

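Cxcr5 kept its direction and its call in all 18 alternatives (log2 fold change -4.52 to -2.79, limma adjusted p 4.1e-04 to 0.0181). Cxcr3 kept its direction in all 18 but lost its call in 10, where the limma adjusted p was between 0.0549 and 0.0989. Ccr6 gained a call in 4 of 17, including TPM as deposited (-4.87, limma adjusted p = 0.0143) and the more frequent title prefix (-5.81, limma adjusted p = 0.0015). That prefix leaves out MBC replicate 3 and PC replicate 4, so it is not separate from the run without MBC replicate 3, another of the 4. Ccr7 was not called in any of 18. Cxcr4 turned to -0.44 in TPM as deposited. The 2 members called became 1 with a pseudocount of 0.1, with no filter, and with the replicate block or the title code block, and 1 to 3 when a library was left out. The 742 genes called higher in PCs became 437 with no filter, 472 in TPM as deposited, 352 with immunoglobulin and mitochondrial genes removed, 390 with the replicate block, 434 with the title code block, and 451 to 1592 when a library was left out. The 248 genes called lower became 123, 3018, 557, 60 and 83 in the same order, 490 after quantile normalization, 417 within the more frequent title prefix, and 91 to 919 when a library was left out, of which 1592 and 919 were without MBC replicate 3. The median log2 fold change of all genes was -0.91 in TPM as deposited, -0.29 with those genes removed and -0.15 after quantile normalization. The difference in summed receptor level, -123 scaled TPM, was -317 in TPM as deposited (exact permutation p = 0.0286) and -396 with those genes removed (exact permutation p = 0.0571). The cause of these shifts was not tested. Shares and the ratio of Cxcr4 to Cxcr5 moved by less than 1 SD (pooled within the groups over all 7 libraries) in every alternative run, but with a library left out the exact permutation test cannot go below 0.0667 or 0.1. Deviations of same-numbered libraries correlated at 0.11, -0.04 and -0.08, and those of libraries with a shared title code at 0.11, -0.0044 and 0.22. In neither case were all 3 over 0.1, and the samples were not treated as paired. Deviations from the mean of 3 or 4 libraries are tied to each other, so this rule cannot show that pairing is absent. With the title code as a block, Cxcr3 was not called (limma adjusted p = 0.0904). MBC replicates 1 and 2 were the shallowest at a given TPM, which limits statements on Ccr9, Ccr10 and Ackr3.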
